A study of Mus musculus with 9 samples.

Results

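The genes described here encode the lysosomal proton pump with its accessory proteins, the cathepsin proteases and the membrane glycoproteins Lamp1 and Lamp2. They were taken by name from the protein-coding genes of the expression table: symbols that begin with Atp6v0, Atp6v1 or Atp6ap, symbols made of Cts and 1 further letter, and Lamp1 and Lamp2. Ctss (cathepsin S) was left out by that rule and is given only for comparison. The rule found 44 genes of 48230: 9 of the pump's V0 sector, 13 of its V1 sector, 3 accessory genes, 17 cathepsins and the 2 Lamp genes. The rule uses names only, but it was set with earlier results of these data known.

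RNA was measured in BeCon cells, a mouse ovarian tumor line, in 9 libraries. The YKL-05-099 group held 4 libraries from B6 mice that carried BeCon tumors and received YKL-05-099, an inhibitor of the salt-inducible kinases. The cultured group was 1 library of BeCon cells grown in vitro, with no replicate. The vehicle group held 4 libraries from BeCon-bearing B6 mice that received vehicle control. In all 8 mouse libraries the tumor cells came from ascites and had been sorted as viable CD45- MHCI+ cells; no sort is stated for the cultured cells. The sources used here give no dose, schedule, mouse age or time of harvest. Whether each library holds the cells of 1 mouse or of several is unstated, and the p-values therefore reflect only how far libraries of a group differ. Treated and vehicle libraries carry different name prefixes, and whatever these mark cannot be told apart from treatment.

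The vacuolar ATPase pumps protons into lysosomes and so gives them the acid interior in which their enzymes work. Its V1 sector sits in the cytosol and splits ATP, and its V0 sector lies in the membrane and carries the protons. Several subunits exist as isoforms that cells use to different degrees. Cathepsins are the main lysosomal proteases and are made as precursors that mature at acid pH, while the Lamp proteins coat the inner face of the lysosomal membrane. In mammals the transcription factors TFEB, TFE3 and MITF bind a short element, known as CLEAR, near the start of many of these genes, and mTORC1 at the lysosome keeps these factors out of the nucleus in fed cells.

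The CLEAR element holds the letters TCACGTG, and those letters were searched on both strands in the RefSeq promoter windows of GRCm38.p6, which run from 250 bases before to 50 bases after a gene's start. Promoters were found for 33 of the 44 genes. TCACGTG stood in the window of 7 of these 33 genes (21.2%), against 4.29% of 27025 genes in the promoter table. Among the genes expressed here at a level that allowed a test, it stood in 7 of 21 pump, cathepsin and Lamp genes (33.3%), against 7.12% of 8908 genes. The shorter palindrome CACGTG, which TCACGTG contains, stood in 9 of the 33 genes, the other two being Ctsf and Ctsl. A match is a description of the letters and does not show that a factor binds there.

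The windows shown for the 7 genes are those that hold the letters searched, with TCACGTG on either strand in capitals. They run from 150 bases before to 30 after the start site, 5′ to 3′ on the gene's strand. Their places on GRCm38.p6 are Atp6v0b chr4:117887300-117887479 (minus strand), Atp6v0d1 chr8:105566035-105566214 (minus strand), Atp6v0e chr17:26676246-26676425 (plus strand), Atp6v1a chr16:44139230-44139409 (minus strand), Ctsa chr2:164833623-164833802 (plus strand), Ctsd chr7:142387798-142387977 (minus strand) and Lamp1 chr8:13159011-13159190 (plus strand).
Atp6v0b: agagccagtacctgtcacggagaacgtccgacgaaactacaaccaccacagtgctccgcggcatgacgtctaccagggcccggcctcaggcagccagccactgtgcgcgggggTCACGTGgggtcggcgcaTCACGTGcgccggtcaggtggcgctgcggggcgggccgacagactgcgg
Atp6v0d1: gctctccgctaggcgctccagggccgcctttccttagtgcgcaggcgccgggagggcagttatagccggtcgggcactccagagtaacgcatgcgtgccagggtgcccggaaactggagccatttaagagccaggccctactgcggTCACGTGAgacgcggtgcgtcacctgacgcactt
Atp6v0e: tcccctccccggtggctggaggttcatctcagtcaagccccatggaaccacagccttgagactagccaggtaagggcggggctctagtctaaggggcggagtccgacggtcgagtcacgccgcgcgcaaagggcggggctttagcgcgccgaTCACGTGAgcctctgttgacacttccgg
Atp6v1a: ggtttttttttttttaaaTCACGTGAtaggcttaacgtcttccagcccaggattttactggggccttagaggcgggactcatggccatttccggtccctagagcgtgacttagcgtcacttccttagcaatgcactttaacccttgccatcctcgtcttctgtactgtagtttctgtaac
Ctsa: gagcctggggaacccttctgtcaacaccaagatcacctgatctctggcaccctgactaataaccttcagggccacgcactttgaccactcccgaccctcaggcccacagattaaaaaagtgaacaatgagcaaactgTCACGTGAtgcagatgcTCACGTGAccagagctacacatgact
Ctsd: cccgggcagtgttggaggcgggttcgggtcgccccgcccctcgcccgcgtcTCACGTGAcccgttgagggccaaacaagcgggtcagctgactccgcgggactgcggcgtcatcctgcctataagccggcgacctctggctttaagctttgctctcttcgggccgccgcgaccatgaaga
Lamp1: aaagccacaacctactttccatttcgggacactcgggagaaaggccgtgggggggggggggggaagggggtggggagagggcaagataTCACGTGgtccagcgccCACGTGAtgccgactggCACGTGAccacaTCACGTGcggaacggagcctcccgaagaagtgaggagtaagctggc
Lamp1 held 4 copies of CACGTG, whose first bases lay at -61, -45, -28 and -15 from the start. Atp6v0b held 2, at -36 and -18. The Ctsa window shown held 2, at -12 and 6, and the other Ctsa window, chr2:164832622-164832921, held none. Atp6v0d1 held its copy at -3, Atp6v0e at 4 and Atp6v1a at -131. Ctsd held 1 copy at -98 and another, outside the stretch shown, at -245.

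The libraries stood at an approximate depth of 23000000 to 30000000 fragments with YKL-05-099, 28000000 in culture and 25000000 to 35000000 with vehicle, and each had between 11421 and 11893 genes at 1 FPKM or more. FPKM corrects fragment numbers for transcript length and for the mapped total of a library, so levels of different genes can be set side by side. Of 16 tested macrophage markers, 14 were called lower with YKL-05-099, 3 of which (Csf1r, Itgam and Msr1) entered the test only through the vehicle libraries. The 25 markers summed to 36.5 to 126 FPKM with YKL-05-099, 14.0 FPKM in culture and 271 to 623 FPKM with vehicle. In bulk libraries, fewer cells of a type and less RNA per cell cannot be told apart. All 6 tested pan-leukocyte markers were called lower (Itgb2 entered only through the vehicle libraries), as were 5 of 6 tested fibroblast markers. In the cultured BeCon cells these 5 stood at 32.2 (Col1a1), 28.0 (Loxl1), 23.6 (Col3a1), 10.5 (Pdgfra) and 0.0668 FPKM (Col1a2). Of 18 lymphocyte and granulocyte markers, Igkc alone passed the filter, and through the vehicle libraries only: it ranged from 0.0526 to 0.473 FPKM with YKL-05-099, against 9.46 to 39.9 FPKM with vehicle. The 2 tested endothelial and 2 tested osteoclast markers were not called. Of 12 tested ovarian epithelial and mesothelial markers, 3 were higher and 5 lower, against 28.0% and 15.1% of all genes tested. Their median log2 fold change was -0.14, against 0.05 over all genes tested. Krt18, an epithelial keratin, went against that median, at 248 FPKM on average with YKL-05-099 and 172 FPKM with vehicle. Epcam, another epithelial marker, stood too low to enter the test, at 0.0737 FPKM on average with YKL-05-099 and 0.457 FPKM with vehicle.

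Of the 44 genes, 29 reached 1 FPKM in at least 4 of the 8 mouse libraries and entered the test. Their median level over the mouse libraries was 70.7 FPKM, against 14.6 FPKM for all 11788 genes tested, and 25 of the 29 lay above that median. The order of levels was led by Atp6v0e, which encodes the small e subunit of V0, at 271 FPKM on average. Ctsl (cathepsin L, a cysteine protease) followed at 255, Ctsd (cathepsin D, the main aspartic protease) at 210.2 and Lamp1 at 195 FPKM. Over the mouse libraries the range of each of these 4 overlapped that of the next, so the order among them lies within their spread. At the low end, Atp6v1g2 averaged 2.53, Atp6v0d2 2.21 and Ctsc 1.91 FPKM, again with overlapping ranges.

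The other 15 genes did not enter the test, and each averaged under 1 FPKM over the mouse libraries. Of these, 6 were listed at 0 in all 9 libraries: Atp6v1g3, Atp6v1e2, Ctsj, Ctsq, Ctsr and Ctsm. The last 4 belong to a rodent cathepsin cluster known from placenta. The highest of the untested genes was Ctse (cathepsin E), at 0.508 ± 0.0400 FPKM with YKL-05-099 and 0.901 ± 0.381 FPKM with vehicle (SD, n = 4 each). Ctsk (cathepsin K, the collagen-degrading protease of osteoclasts) averaged 0.414 FPKM. The isoforms Atp6v0a4 and Atp6v1b1, which are known from acid-secreting cells of the kidney, averaged 0.203 and 0.0913 FPKM.

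**Figure D1:**
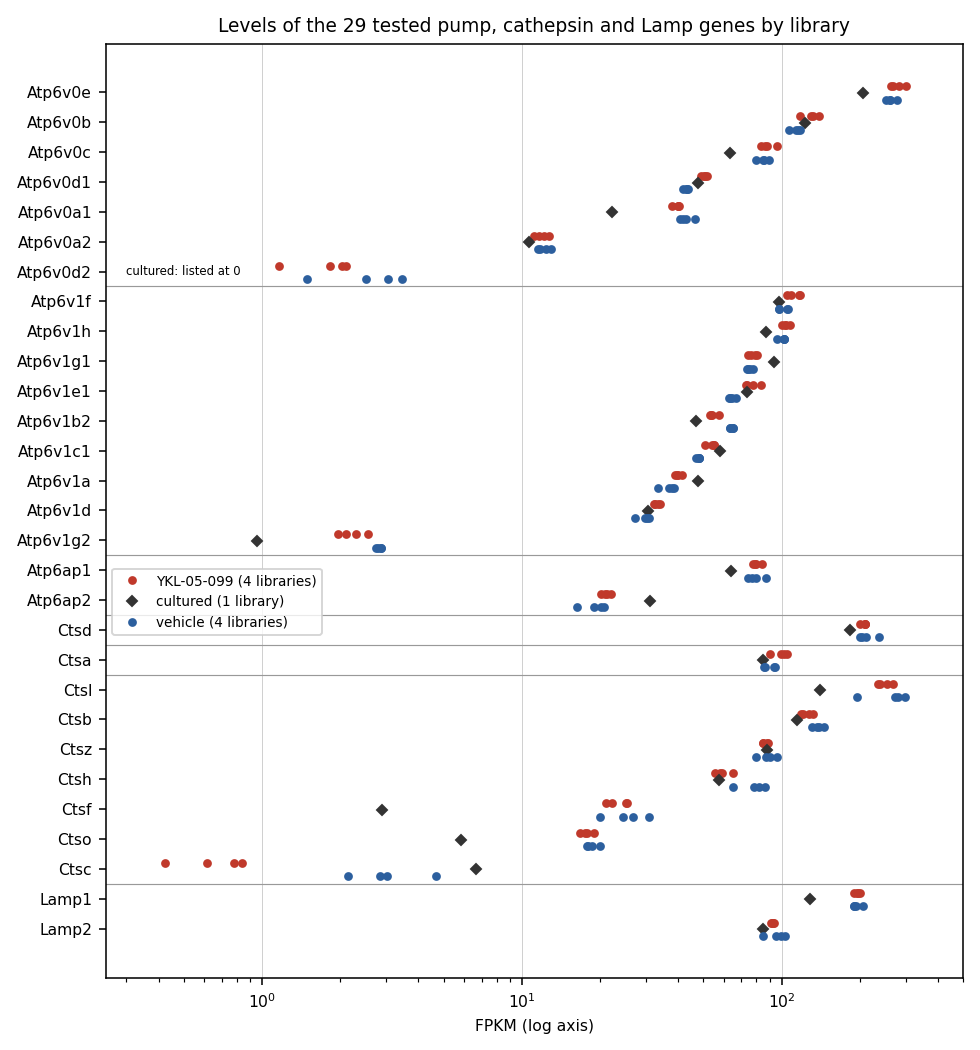
Level of each of the 29 tested genes in each library, in FPKM on a log axis, ordered by role and level; red circles are the 4 YKL-05-099 libraries, black diamonds the cultured library and blue circles the 4 vehicle libraries. Ctsc is the gene whose YKL-05-099 and vehicle libraries stand farthest apart, and the cultured library lies well below the mouse libraries for Ctsf, Ctso, Atp6v0a1 and Atp6v1g2.

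The first comparison asked how these genes differed between tumor cells of YKL-05-099-treated and vehicle-treated mice. A few moved, most by little. With limma on log2(FPKM + 1) and p-values adjusted over all 11788 genes, 5 rose, 5 fell and 19 were not called. Ctsc, 1 of those that fell, entered the test only through the vehicle libraries, and 4 fell without it. The 10 called genes are 34.5% of the 29, and the share called among all genes was 43.2%. By direction, 17.2% of the 29 rose, against 28.0% of all genes, and 17.2% fell, against 15.1%. The groups did not overlap for 9 of the 29 genes, and 40.0% of all genes had no overlap. These shares lie near or below the background.

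The median log2 fold change over the 29 genes was 0.00, against 0.05 over all genes tested, and the median absolute change was 0.12, against 0.17. Of the 29, 1 (Ctsc) was called with a change of at least 1 log2 unit, as 2.14% of all genes were. All 5 genes that rose encode V0 or V1 subunits, 3 of the 5 that fell are cysteine cathepsins, and the other two that fell are V1 subunits. Scaling each library by its median ratio to the other libraries changed the split: 2 of the 29 (Atp6v0d1 and Atp6v1e1) were then higher and 6 lower, of which 3 were pump genes (Atp6v0a1, Atp6v1b2 and Atp6v1g2), and over all genes 2572 were higher and 2338 lower in place of 3304 and 1785. Leaving out single libraries moved the counts too: 3 were higher without YKL-05-099 replicate 3, 3 lower without YKL-05-099 replicate 1, YKL-05-099 replicate 4 or vehicle replicate 1, and 2 lower without vehicle replicate 2 or 3. Without any 1 vehicle library Ctsc failed the filter, so its loss from those counts was fixed in advance. Median-of-ratios scaling shifted the median log2 fold change of all genes by -0.05.

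**Figure D2:**
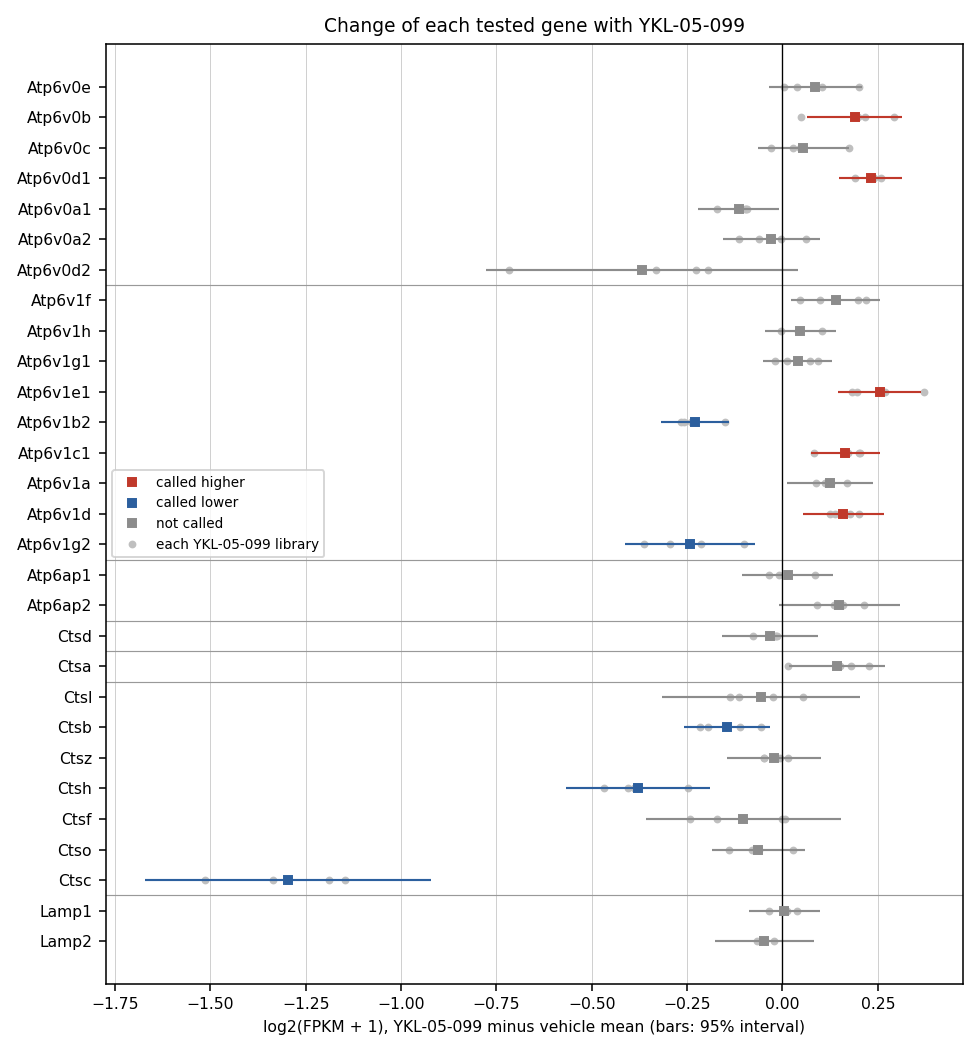
Log2 fold change of each of the 29 tested genes on log2(FPKM + 1), YKL-05-099 minus vehicle, with its 95% interval from limma (4 libraries a group); colour gives the call, and small grey points are single YKL-05-099 libraries minus the vehicle mean. The 5 genes that rose are pump subunits and lie between 0.16 and 0.25, and Ctsc lies at -1.30.

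In the V0 sector, 2 of 7 tested genes rose and none of the 7 fell, while 28.0% of all genes tested rose and 15.1% fell. Atp6v0d1, the widely expressed d subunit that couples the membrane ring to the V1 stalk, lies at chromosome 8, 105524465 to 105566047 on GRCm38. It had 50.8, 49.03, 51.5 and 50.5 FPKM in the YKL-05-099 libraries, against 43.7, 43.2, 42.9 and 41.6 FPKM in the vehicle libraries. Every treated library lay above every vehicle library. The means were 50.4 ± 1.03 FPKM with YKL-05-099 and 42.8 ± 0.888 FPKM with vehicle (SD, n = 4 each), a rise of 17.8% (log2 fold change 0.23, SE 0.04, adjusted p = 0.001).

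Atp6v0b, which encodes the c″ subunit of the membrane ring, had 130.0, 132, 139 and 117 FPKM in the YKL-05-099 libraries, against 107, 117, 114 and 115 FPKM in the vehicle libraries. The lowest treated library and the highest vehicle library overlapped, and the other treated libraries lay above all vehicle libraries. Its rise was smaller (log2 fold change 0.19, SE 0.06, adjusted p = 0.0211), and the call was lost under median-of-ratios scaling and without YKL-05-099 replicate 2, YKL-05-099 replicate 3 or vehicle replicate 1. Atp6v0e had 263, 282, 302 and 269 FPKM in the YKL-05-099 libraries, against 262, 278, 251 and 260.4 FPKM in the vehicle libraries, and its log2 fold change of 0.09 (95% interval -0.03 to 0.21) was not called (adjusted p = 0.221). Atp6v0c, which encodes the main proton-carrying c subunit, stood at 88.3 ± 5.44 FPKM with YKL-05-099 and 84.9 ± 3.95 FPKM with vehicle (adjusted p = 0.432); its pseudogene Atp6v0c-ps1 reached at most 0.224 FPKM.

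In the V1 sector, 3 of 9 tested genes rose and 2 fell, against 28.0% and 15.1% of all genes tested. Atp6v1e1, which encodes the peripheral-stalk E subunit and lies at chromosome 6, 120794305 to 120822793, had 77.7, 73.1, 83.5 and 73.8 FPKM in the YKL-05-099 libraries, against 64.7, 66.5, 62.7 and 63.5 FPKM in the vehicle libraries. The groups did not overlap, and the treated libraries were higher in all 4 cases. The mean rose by 19.7% (log2 fold change 0.25, SE 0.05, adjusted p = 0.00273).

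Atp6v1c1, which encodes the C subunit that takes part in joining V1 to V0, had 54.99, 50.7, 53.9 and 55.1 FPKM in the YKL-05-099 libraries, against 46.8, 48.1, 48.0 and 48.1 FPKM in the vehicle libraries. Again no library of one group reached the other. The rise was 12.4% (log2 fold change 0.16, SE 0.04, adjusted p = 0.00916), and under median-of-ratios scaling it lost the call. Atp6v1d, which encodes the central rotor subunit D, had 32.6, 32.3, 34.1 and 33.5 FPKM in the YKL-05-099 libraries, against 30.4, 30.8, 27.4 and 29.7 FPKM in the vehicle libraries, with no overlap between the groups. It rose by 12.02% (log2 fold change 0.16, SE 0.05, adjusted p = 0.0209), a call that was lost in 4 of 17 alternatives, among them median-of-ratios scaling and leaving out YKL-05-099 replicate 3 or vehicle replicate 3.

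Atp6v1b2, which encodes the widely expressed B subunit of the ATP-binding head, moved the other way. It lies at chromosome 8, 69088646 to 69113711. It had 53.1, 54.2, 57.6 and 53.4 FPKM in the YKL-05-099 libraries, against 64.9, 65.05, 63.2 and 63.4 FPKM in the vehicle libraries. All 4 treated libraries lay below all 4 vehicle libraries. The mean fell by 14.9% (log2 fold change -0.23, SE 0.04, adjusted p = 0.00154). Atp6v1a, which encodes the A subunit that alternates with B in the same head, had 41.2, 39.6, 38.9 and 39.99 FPKM in the YKL-05-099 libraries, against 37.8, 36.8, 38.5 and 33.3 FPKM in the vehicle libraries, without overlap, but was not called (log2 fold change 0.12, adjusted p = 0.0714). So of these partners in the head, B fell while A had a positive difference that missed the threshold.

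Atp6v1g2, an isoform of the peripheral-stalk G subunit known from neurons, had 2.11, 2.56, 2.29 and 1.97 FPKM in the YKL-05-099 libraries, against 2.75, 2.79, 2.87 and 2.87 FPKM in the vehicle libraries. Its treated libraries were all lower (log2 fold change -0.24, SE 0.08, adjusted p = 0.0278). The call was lost in 6 of 16 alternatives, among them no filter on low values and leaving out YKL-05-099 replicate 1, YKL-05-099 replicate 4, vehicle replicate 2 or vehicle replicate 3. Its locus overlaps Nfkbil1, that of Atp6v1b2 overlaps Slc18a1 and that of Atp6v1e1 overlaps Slc25a18; the sources used here do not give whether the quantification used strand. Atp6v1f, which encodes the rotor subunit F, had 108, 118, 116 and 105 FPKM in the YKL-05-099 libraries, against 105, 106, 97.3 and 97.9 FPKM in the vehicle libraries and was not called (log2 fold change 0.14, adjusted p = 0.0539); without YKL-05-099 replicate 4 it was called higher (log2 fold change 0.17, adjusted p = 0.0288).

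Summed over all 25 pump genes, the level was 1256 ± 35.9 FPKM with YKL-05-099 and 1183 ± 30.4 FPKM with vehicle (SD, n = 4 each). The sum was given no test. The 2 tested accessory genes were not called. Atp6ap1, which encodes a luminal assembly factor of V0, had 84.3, 79.9, 78.9 and 77.5 FPKM in the YKL-05-099 libraries, against 79.9, 86.8, 76.8 and 74.5 FPKM in the vehicle libraries, and these overlapped (log2 fold change 0.01, 95% interval -0.11 to 0.13). Atp6ap2, which encodes the (pro)renin receptor, stood at 21.1 ± 0.782 FPKM with YKL-05-099 and 19.01 ± 1.96 FPKM with vehicle (adjusted p = 0.117).

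For the a subunit of V0, which steers the pump to particular membranes, the isoform shares of the RNA differed between the groups. Protein was not measured. The a subunit is encoded by 4 genes: Atp6v0a1, Atp6v0a2, Atp6v0a4 and Tcirg1. The a3 product of Tcirg1 is known from osteoclasts and lysosomes, and the name rule did not take this gene. Tcirg1 made up 40.2, 41.2, 39.8 and 40.6% of the summed FPKM of the 4 genes in the YKL-05-099 libraries, against 34.4, 29.6, 28.99 and 33.01% in the vehicle libraries. Every treated library had the larger share. Atp6v0a1 made up 46.7, 44.9, 45.96 and 45.01% with YKL-05-099, against 51.5, 54.4, 55.6 and 51.05% with vehicle, again without overlap. The shares were not tested, and since they sum to a whole they cannot move independently.

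In level, Tcirg1, at chromosome 19, 3896050 to 3907133, had 34.5, 36.8, 32.9 and 36.2 FPKM in the YKL-05-099 libraries, against 28.7, 22.1, 24.1 and 27.02 FPKM in the vehicle libraries, and rose by 37.7% (log2 fold change 0.45, SE 0.08, adjusted p = 0.00135). Atp6v0a1 had 40.1, 39.97, 37.95 and 40.1 FPKM in the YKL-05-099 libraries, against 42.99, 40.7, 46.2 and 41.8 FPKM in the vehicle libraries, which did not overlap but was not called (log2 fold change -0.12, adjusted p = 0.0767); under median-of-ratios scaling it was called lower (log2 fold change -0.16, adjusted p = 0.0166). Atp6v0a2 had 11.9 ± 0.670 FPKM with YKL-05-099 and 12.2 ± 0.629 FPKM with vehicle (adjusted p = 0.701). Of 8 osteoclast markers listed, 2 entered the test and were not called. The cultured library had 39.9 FPKM of Tcirg1, above all 8 mouse libraries. Which cells the rise of Tcirg1 came from was not tested.

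Of the summed FPKM of the d subunit pair, Atp6v0d2, known from osteoclasts and macrophages, made up 2.23, 3.98, 3.42 and 3.99% with YKL-05-099, against 7.35, 6.62, 5.52 and 3.47% with vehicle. These shares overlapped. Its level was 1.16, 2.03, 1.82 and 2.10 FPKM in the YKL-05-099 libraries, against 3.47, 3.06, 2.50 and 1.49 FPKM in the vehicle libraries. It was not called (log2 fold change -0.37, adjusted p = 0.131), but without vehicle replicate 4 it was called lower (log2 fold change -0.54, adjusted p = 0.0118). Macrophage markers moved in the same direction, and their part in this difference was not tested. For each of the B, C, E and G subunits, almost all the RNA came from 1 isoform. Atp6v1b2, Atp6v1c1 and Atp6v1e1 stood far above Atp6v1b1, Atp6v1c2 and Atp6v1e2, and Atp6v1g1 at 76.4 FPKM stood above Atp6v1g2.

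**Figure D3:**
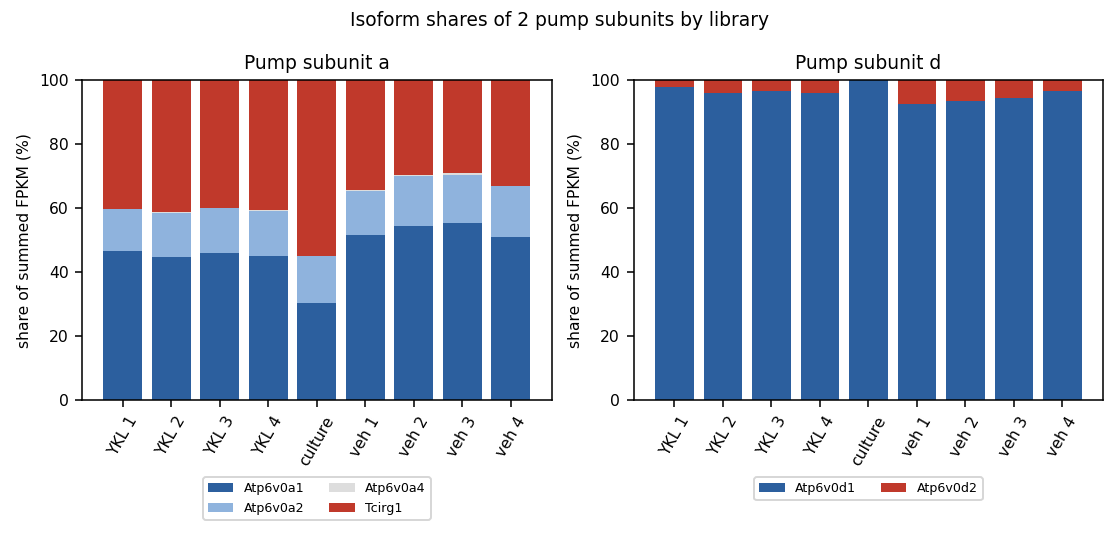
Share of the summed FPKM of the genes of 1 pump subunit that each isoform contributes, in percent, per library; left the a subunit, right the d subunit, with YKL-05-099 libraries first, then culture, then vehicle. The Tcirg1 share lies between 39.8% and 41.2% with YKL-05-099, at 54.9% in culture and between 28.99% and 34.4% with vehicle.

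Among the cathepsins, 3 of 9 tested genes were called lower, Ctsc among them, and none of the 9 was called higher. The shares over all genes tested were 15.1% lower and 28.0% higher. The count of lower calls was 1 without vehicle replicate 1, 2 or 3. In these fits Ctsc could not be counted, because it reached 1 FPKM only in the 4 vehicle libraries and so failed the filter. Ctsc (cathepsin C, a dipeptidyl peptidase that activates the granule proteases of immune cells) lies at chromosome 7, 88278085 to 88310888 on GRCm38. It had 0.611, 0.782, 0.837 and 0.423 FPKM in the YKL-05-099 libraries, against 3.02, 4.68, 2.13 and 2.83 FPKM in the vehicle libraries. No treated library reached 1 FPKM and every vehicle library was above 2 FPKM. Ctsc passed the filter of 1 FPKM in 4 libraries only through the vehicle group, in which it was high, so a lower call was the likely outcome of entering. It averaged 0.663 ± 0.187 FPKM with YKL-05-099 and 3.16 ± 1.08 FPKM with vehicle (SD, n = 4 each; log2 fold change -1.30, SE 0.17, adjusted p = 0.0003). Fitted with no filter on low values it was also called lower (adjusted p = 0.00325). Beside it, the summed macrophage markers given above were lower with YKL-05-099, with Lyz2 (lysozyme of myeloid cells) at 5.27, 30.9, 32.4 and 3.11 FPKM in the YKL-05-099 libraries, against 109.7, 142, 66.5 and 72.2 FPKM in the vehicle libraries. The vehicle library with the most Lyz2 also had the most Ctsc. The part of macrophage RNA in the difference was not tested. The cultured library had 6.67 FPKM of Ctsc, above all 8 mouse libraries, and the macrophage markers there summed to 14.0 FPKM. Of the 25 markers, 14 were listed at 0 in culture, among them C1qa, Tyrobp, Itgam and Adgre1, and 3 stood above 1 FPKM: Cd68 at 10.04, Apoe at 1.87 and Mpeg1 at 1.16 FPKM.

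Ctss, the cathepsin of antigen-presenting cells that was left out of the group, had 0.676, 4.08, 5.58 and 0.355 FPKM in the YKL-05-099 libraries, against 16.4, 24.6, 8.69 and 8.07 FPKM in the vehicle libraries. The 2 treated libraries with more Ctss were those with more Lyz2. Ctss fell (log2 fold change -2.25, SE 0.53, adjusted p = 0.00704) and was listed at 0 in culture, unlike Ctsc. A part of macrophage RNA in its difference was not tested either.

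Ctsh (cathepsin H, an aminopeptidase), at chromosome 9, 90054152 to 90076089, had 64.9, 58.1, 58.8 and 55.6 FPKM in the YKL-05-099 libraries, against 81.8, 86.2, 78.1 and 64.8 FPKM in the vehicle libraries. Vehicle replicate 4 lay among the treated libraries and the other 3 vehicle libraries above them. The mean was 59.4 ± 3.97 FPKM with YKL-05-099 and 77.7 ± 9.22 FPKM with vehicle (log2 fold change -0.38, SE 0.08, adjusted p = 0.00571). Its level in culture was 57.4 FPKM, inside the treated range, with macrophage markers at 14.0 FPKM in sum. Whether macrophage RNA had a part in the Ctsh difference was not tested. Ctsb (cathepsin B, an abundant cysteine protease) had 119, 128, 133 and 120.4 FPKM in the YKL-05-099 libraries, against 137, 146, 139 and 131 FPKM in the vehicle libraries. Its difference was small (log2 fold change -0.15, SE 0.05, adjusted p = 0.0416) and the call was lost in 9 of 17 alternative settings, among them leaving out YKL-05-099 replicate 1, 2 or 4 or vehicle replicate 1, 2 or 3. The groups overlapped at 1 library on each side, and its locus overlaps Fdft1. In culture Ctsb stood at 114 FPKM.

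The remaining tested cathepsins were not called. Ctsl had 238, 254, 268 and 234 FPKM in the YKL-05-099 libraries, against 273, 297, 280.2 and 196 FPKM in the vehicle libraries. Vehicle replicate 4 stood far below the other 3 vehicle libraries, and without it Ctsl was called lower (log2 fold change -0.19, adjusted p = 0.0244). Ctsd had 201, 210.0, 209.9 and 209 FPKM in the YKL-05-099 libraries, against 211, 237, 203 and 199.9 FPKM in the vehicle libraries, which overlapped (log2 fold change -0.03, 95% interval -0.16 to 0.09). Ctsa (cathepsin A, a serine carboxypeptidase that also protects galactosidase and neuraminidase in their complex) had 90.5, 105, 99.7 and 102 FPKM in the YKL-05-099 libraries, against 94.1, 85.4, 93.7 and 86.02 FPKM in the vehicle libraries and was not called (log2 fold change 0.14, adjusted p = 0.067), but was called higher without YKL-05-099 replicate 1 (log2 fold change 0.19, adjusted p = 0.0235). The Ctsa locus overlaps Pltp and Neurl2, and that of Ctsz overlaps Nelfcd. Ctsz, Ctsf and Ctso had log2 fold changes of -0.02, -0.10 and -0.06. Summed over the 17 genes, cathepsin levels were 869 ± 28.6 FPKM with YKL-05-099 and 917 ± 82.8 FPKM with vehicle (SD, n = 4 each).

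Neither Lamp gene was called. Lamp1 had 199.9, 189.8, 196 and 195 FPKM in the YKL-05-099 libraries, against 190.1, 205, 194 and 189.6 FPKM in the vehicle libraries. The groups lay on top of each other, with a log2 fold change of 0.00 and a 95% interval of -0.09 to 0.10. Lamp2, which also serves chaperone-mediated autophagy, stood at 92.2 ± 1.25 FPKM with YKL-05-099 and 95.5 ± 7.90 FPKM with vehicle (log2 fold change -0.05, adjusted p = 0.537).

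Of the 7 tested genes with TCACGTG in the promoter window printed above, Atp6v0b and Atp6v0d1 rose and the other 5 were not called. Of 14 tested genes whose windows lacked it, 2 rose and 2 fell. The remaining 8 tested genes had no promoter in the table, and of these 1 rose, 3 fell and 4 were not called. Over all genes tested, 28.0% rose and 15.1% fell. Among the factors known to bind the element, Tfeb had 16.4, 16.7, 16.6 and 18.04 FPKM in the YKL-05-099 libraries, against 22.9, 22.9, 23.1 and 28.04 FPKM in the vehicle libraries, without overlap. It fell by 30.1% (log2 fold change -0.49, SE 0.07, adjusted p = 0.000529). Tfe3 stood at 15.4 ± 0.436 FPKM with YKL-05-099 and 15.7 ± 1.47 FPKM with vehicle and was not called (adjusted p = 0.873), and Mitf averaged 0.267 FPKM and was not tested.

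Lists of other lysosomal genes, written from textbook knowledge with earlier results of these data known, give the setting. Of 16 tested genes in a list of other pump components, assembly factors and regulators, 6 rose (37.5%) and 1 fell (6.25%). Over all genes tested, 28.0% rose and 15.1% fell. Under median-of-ratios scaling 3 of the 16 rose and 2 fell. The list's median log2 fold change was 0.05, against 0.05 for all genes. The list also holds Spns1, a lysosomal lysophospholipid transporter that is no pump gene, and without it 5 of 15 rose and 1 fell. The lower count was 2 without YKL-05-099 replicate 1 or vehicle replicate 4. Beside Tcirg1, described above, Tldc1 had 10.7 ± 0.422 FPKM with YKL-05-099 and 8.35 ± 0.421 FPKM with vehicle (log2 fold change 0.33, SE 0.05, adjusted p = 0.00114), and Spns1 had 20.0 ± 1.20 FPKM with YKL-05-099 and 15.1 ± 0.698 FPKM with vehicle (log2 fold change 0.38, SE 0.06, adjusted p = 0.000546). Of 42 lysosomal hydrolases and their activators, 19 rose and 3 fell (median 0.13). Galc, the galactosylceramidase of myelin lipid breakdown, had 39.97 ± 2.45 FPKM with YKL-05-099 and 25.3 ± 1.19 FPKM with vehicle (log2 fold change 0.64, SE 0.05, adjusted p = 3.14e-05), and Glb1, the lysosomal beta-galactosidase, had 36.4 ± 1.05 FPKM with YKL-05-099 and 27.8 ± 1.32 FPKM with vehicle (log2 fold change 0.38, SE 0.05, adjusted p = 0.000207). So 45.2% of these hydrolase genes rose, against 28.0% of all genes, while no tested cathepsin of the 9 did; the difference between the lists was not tested.

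Of 33 lysosomal membrane proteins, 11 rose (33.3%) and 1 fell (3.03%), against 28.0% and 15.1% of all genes tested (median 0.10). The lower count was 0 without YKL-05-099 replicate 2, 3 or 4 or vehicle replicate 2 or 3, and 2 without vehicle replicate 4. Ctns, the cystine exporter, had 15.9 ± 1.08 FPKM with YKL-05-099 and 7.78 ± 0.484 FPKM with vehicle (log2 fold change 0.94, SE 0.06, adjusted p = 9.64e-06), and Mcoln1, the calcium channel TRPML1, had 45.9 ± 1.63 FPKM with YKL-05-099 and 31.4 ± 1.15 FPKM with vehicle (log2 fold change 0.53, SE 0.04, adjusted p = 2.76e-05). Of 31 genes of mannose 6-phosphate sorting and retrieval, the route that delivers cathepsins to lysosomes, 11 rose (35.5%) and none of the 31 fell (median 0.10). Under median-of-ratios scaling 6 rose and 1 fell. Leaving out each replicate gave 6 to 10 higher, the 6 without YKL-05-099 replicate 4, and 2 were lower without vehicle replicate 4. Gga2, a sorting adaptor at the Golgi, had 46.3 ± 1.32 FPKM with YKL-05-099 and 28.2 ± 1.78 FPKM with vehicle (log2 fold change 0.70, SE 0.05, adjusted p = 1.39e-05). Of 33 autophagy genes, 13 rose (39.4%) and 1 fell (3.03%), with a median of 0.12. The lower count was 0 without vehicle replicate 1 or 3 and 2 without vehicle replicate 4. Those that rose include Atg14, with 9.73 ± 0.474 FPKM with YKL-05-099 and 5.61 ± 0.554 FPKM with vehicle (log2 fold change 0.70, SE 0.07, adjusted p = 7.39e-05), and Ulk1, with 34.2 ± 1.19 FPKM with YKL-05-099 and 22.8 ± 2.08 FPKM with vehicle (log2 fold change 0.57, SE 0.06, adjusted p = 0.00013).

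Of 32 genes for MiT-TFE factors and mTORC1 nutrient sensing at the lysosome, 12 rose (37.5%) and 5 fell (15.6%), with a median of 0.05. Over all genes tested, 28.0% rose and 15.1% fell. Under median-of-ratios scaling 8 of the 32 rose and 7 fell. The lower count was 3 without YKL-05-099 replicate 2, vehicle replicate 2 or vehicle replicate 3, and 8 without vehicle replicate 4. Flcn and Fnip1 encode partners in a complex that controls the Rag GTPases, and through them the phosphorylation of TFEB and TFE3. Flcn had 38.2, 31.1, 35.6 and 23.8 FPKM in the YKL-05-099 libraries, against 10.03, 10.9, 11.1 and 10.1 FPKM in the vehicle libraries. Fnip1 had 24.9, 19.8, 22.99 and 16.7 FPKM in the YKL-05-099 libraries, against 8.20, 7.07, 7.39 and 6.38 FPKM in the vehicle libraries. Neither gene's groups overlapped, and the rises (log2 fold change 1.51, SE 0.12, adjusted p = 2.57e-05 for Flcn and log2 fold change 1.41, SE 0.11, adjusted p = 2.57e-05 for Fnip1) were larger than that of any tested pump gene. Among 9 tested protease inhibitors, 1 rose (11.1%) and 2 fell (22.2%), with a median of -0.09 (0 and 2 under median-of-ratios scaling). The list holds cystatins, serpins and others such as Timp1, an inhibitor of metalloproteinases. The 1 that rose, Serpinb9, is known chiefly as an inhibitor of granzyme B, and had 15.7 ± 1.20 FPKM with YKL-05-099 and 12.8 ± 1.74 FPKM with vehicle (log2 fold change 0.28, SE 0.09, adjusted p = 0.0306). Its call was lost with no filter, under median-of-ratios scaling and without YKL-05-099 replicate 2, 3 or 4 or vehicle replicate 1, 2 or 3; without vehicle replicate 4 the list had 2 higher. Slpi, a secreted inhibitor of serine proteases, had 12.03 ± 2.20 FPKM with YKL-05-099 and 40.0 ± 7.67 FPKM with vehicle (log2 fold change -1.65, SE 0.15, adjusted p = 4.85e-05), and Cstb (cystatin B, which inhibits cysteine cathepsins in the cytosol) had 220.2 ± 18.6 FPKM with YKL-05-099 and 293 ± 24.3 FPKM with vehicle (log2 fold change -0.41, SE 0.07, adjusted p = 0.00179).

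**Figure D4:**
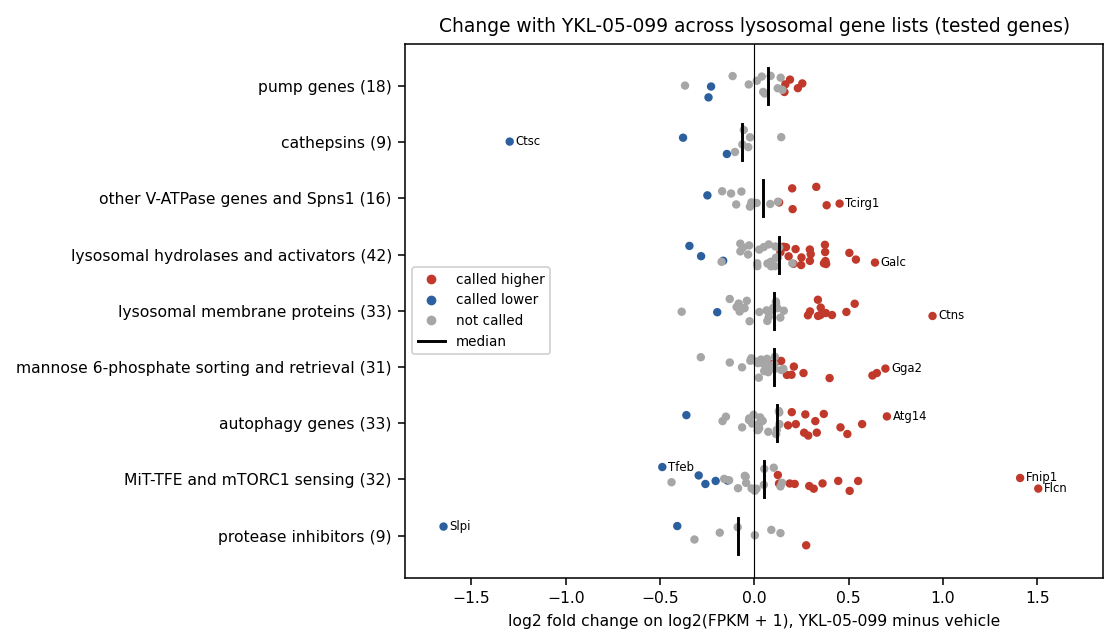
Log2 fold change on log2(FPKM + 1), YKL-05-099 minus vehicle, of every tested gene in the pump and cathepsin groups and in 7 lists of related genes, with the number tested in brackets; each point is a gene, colour gives the call and the black bar the median. Flcn and Fnip1 stand apart on the right and Slpi and Ctsc on the left.

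The second comparison set the cultured library beside the vehicle libraries. With 1 cultured library there is no test, and a gene counted as apart when its level lay outside all 8 mouse libraries and at least 1 log2 unit from the vehicle mean on log2(FPKM + 1). By this rule none of the 29 genes was higher in culture and 3 were lower, while 9.62% of all 12296 genes entered were higher and 10.6% lower. Outside the mouse range, at any distance, lay 21 of the 29 (5 above and 16 below), and 73.6% of all genes did so. The median difference over the 29 was -0.20 log2 units, against 0.03 over all genes.

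Ctsf (cathepsin F, a cysteine protease) had 2.89 FPKM in the cultured library, against 30.8, 24.4, 26.7 and 20.01 FPKM in the vehicle libraries, a difference of -2.75 log2 units. Atp6v0d2 was listed at 0 in the cultured library, against 3.47, 3.06, 2.50 and 1.49 FPKM in the vehicle libraries. Ctso (cathepsin O) had 5.84 FPKM in the cultured library, against 18.01, 18.6, 17.9 and 20.1 FPKM in the vehicle libraries, a difference of -1.52 log2 units. These 3 are the genes called lower. Atp6v1g2 came close, with 0.953 FPKM in the cultured library, against 2.75, 2.79, 2.87 and 2.87 FPKM in the vehicle libraries (-0.97 log2 units), and counted as lower with a pseudocount of 0.1 or 0.5 and as TPM. The a1 isoform of V0, Atp6v0a1, had 22.2 FPKM in the cultured library, against 42.99, 40.7, 46.2 and 41.8 FPKM in the vehicle libraries (-0.92 log2 units). The Tcirg1 share of the summed FPKM of the a subunit genes was 54.9% in culture, against 34.4, 29.6, 28.99 and 33.01% with vehicle.

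Above the mouse libraries lay Ctsc, with 6.67 FPKM in the cultured library, against 3.02, 4.68, 2.13 and 2.83 FPKM in the vehicle libraries (0.91 log2 units), short of the rule's limit; with a pseudocount of 0.1 or 0.5 and as TPM it counted as higher. Atp6ap2 had 31.1 FPKM in the cultured library, against 20.1, 20.6, 19.04 and 16.2 FPKM in the vehicle libraries (0.69 log2 units). Atp6v1a had 47.6 FPKM in the cultured library, against 37.8, 36.8, 38.5 and 33.3 FPKM in the vehicle libraries. Atp6v1g1 had 93.2 FPKM in the cultured library, against 73.9, 77.7, 74.3 and 75.4 FPKM in the vehicle libraries. Both lay above every mouse library and less than 1 log2 unit from the vehicle mean. Ctsl, the cathepsin with the highest mean over the mouse libraries, had 140.1 FPKM in the cultured library. The vehicle libraries had 273, 297, 280.2 and 196 FPKM of it. Lamp1 had 129 FPKM in the cultured library, against 190.1, 205, 194 and 189.6 FPKM in the vehicle libraries. Fibroblast markers summed to 338 FPKM in culture and 657 to 709.5 FPKM with vehicle. Dcn made up most of that sum, at 243 FPKM in culture and 523 FPKM on average with vehicle. Col1a1 went the other way, at 32.2 FPKM in culture and 9.52 FPKM on average with vehicle. Pan-leukocyte markers summed to 4.44 FPKM in culture and 28.6 to 55.01 FPKM with vehicle. Their part in these differences was not tested.

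**Figure D5:**
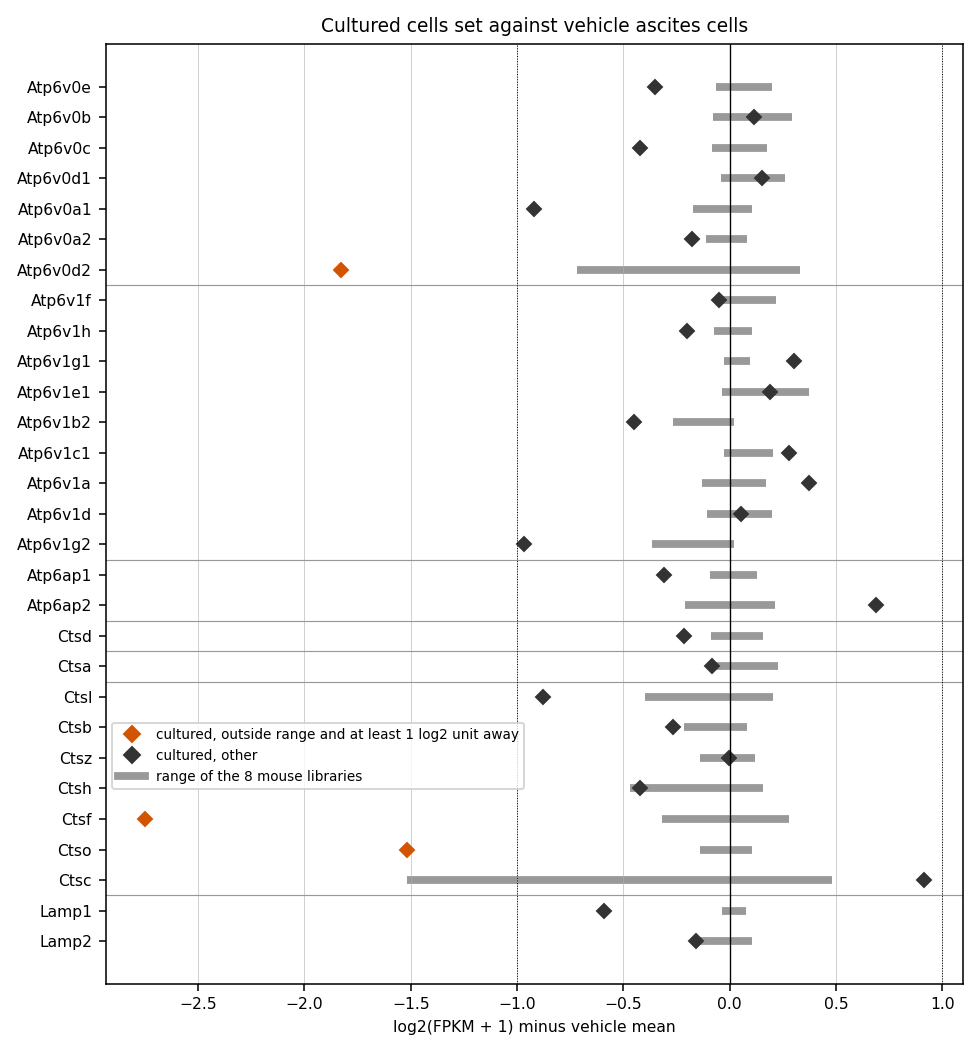
Difference of the cultured library from the vehicle mean on log2(FPKM + 1) for the 29 genes, as diamonds, beside the range of the 8 mouse libraries as grey bars; dotted lines mark the rule's limit of 1 log2 unit. Ctsf, Atp6v0d2 and Ctso lie beyond the limit on the lower side, and Ctsc at 0.91 is the farthest on the higher side.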

How the data were processed

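Strand-marking poly(A) RNA sequencing of BeCon cells gave 9 libraries. The deposited values are FPKM per gene and library with a status beside each, computed by the authors, per the file headers. For read conversion bcl2fastq 2.19 is named, with the GRCm38 build, per the submitters' processing notes; the aligner, quantification program and annotation were not given in those sources. Of 48302 rows, 65 that repeated a gene identifier and 7 genes with a failed estimate were left out. Whole reads could not be recovered from FPKM, so depth is approximate and gives no interval for a single gene.

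Treatment was tested with limma 3.58.1 (R 4.3.3) on log2(FPKM + 1), which understates changes of low genes, with the mean-variance trend, for genes at 1 FPKM or more in 4 of 8 mouse libraries, with Benjamini-Hochberg adjustment over 11788 genes and calls under 0.05. The function was tested on simulated data. The genes and lists were chosen with earlier results of these data known. Genes were named by role, by largest change among those called, by distance in culture and by smallest p within lists. Alternatives were pseudocounts, filters, scalings, no trend, a replicate block and leaving out each replicate. Coordinates are on GRCm38, counted from 1. Promoter sequences are RefSeq's.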

Additional observations from a re-analysis of the deposited data

Results flagged for a closer look

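Among 68 groups of 4 libraries examined, 5 held a library far from the other 3, and chance flags about 1 group in 20. In YKL-05-099 replicate 1, Ctsd stood at 201 FPKM, below a group median of 209.7 FPKM. Atp6v0a1 stood at 38.0 FPKM in YKL-05-099 replicate 3, against a group median of 40.0 FPKM. In vehicle replicate 1, Atp6v1c1 stood at 46.8 FPKM, with a group median of 48.0 FPKM. Vehicle replicate 4 held the other two: Tfeb at 28.0 FPKM, above a group median of 23.0 FPKM, and Atp6v1h at 95.6 FPKM, below a group median of 102 FPKM.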

How the results depend on the processing

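Of the 10 calls, Atp6v0d1, Atp6v1e1, Atp6v1b2 and Ctsh held in all 17 alternatives; Ctsc passes the filter only through the vehicle libraries and dropped out of 5 settings, so its calls in the other 12 do not measure stability. The other 5 calls were lost in at least 1 alternative. The number of genes called higher was 2 under median-of-ratios scaling, as was that of pump genes, and ranged from 3 to 6 for both when each replicate was left out. The number called lower was 3 with no filter and 3 with a mean of at least 5 FPKM, a filter that Ctsc and Atp6v1g2 do not pass. It ranged from 2 to 6 when replicates were left out, or from 1 to 3 among cathepsins. Without any 1 vehicle library Ctsc could not enter these counts. Over all genes, leaving out replicates gave 2771 to 3482 higher and 1392 to 2016 lower. Under median-of-ratios scaling the uncalled differences of Atp6v1h (-0.0027), Atp6v1g1 (-0.0100), Atp6ap1 (-0.037) and Lamp1 (-0.046) changed sign. That scaling divides all genes of a library by the same factor. The factors ran from 1.0204 to 1.0254 for YKL-05-099 and from 0.9749 to 1.0008 for vehicle. Why they differ between the groups was not tested. When replicates were left out, sign changes were seen for Atp6ap1 (-0.0171 to 0.0558), Ctsd (-0.0609 to 0.0204), Ctsl (-0.189 to 0.0116), Ctsz (-0.0697 to 0.0168), Lamp1 (-0.0085 to 0.0298) and Tfe3 (-0.0657 to 0.029), none of them called. In culture, 1 gene (Ctsc) counted as higher with a pseudocount of 0.1, with 0.5 and as TPM, while 4 counted as lower with either pseudocount (Atp6v1g2 in addition), 5 as TPM and 1 (Ctsf) at 2 log2 units. Deviations of same-numbered libraries correlated at -0.02, 0.13, -0.05 and 0.17, and those of other pairs at -0.27 to 0.16. With 4 libraries a group these values cannot settle whether the numbers pair the libraries, and the main fit used no pairing. With the replicate block, 4 genes were higher and 4 lower (Atp6v1d at adjusted p = 0.0528 and Atp6v1g2 at 0.0505 were lost), and 3148 and 1682 over all genes. Depth per gene is unknown, so no interval for counting error is given for genes near 1 FPKM.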
